A study of Taeniopygia guttata with 134 samples.

Results

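The 75 genes described here had a moderate or high mean level in the brains of control male zebra finches (Taeniopygia guttata). Their mean log2 level was higher after lipopolysaccharide (LPS) in each of 3 brain regions. They were chosen among 18618 measured genes on measured values. The first value, B, was the mean level in control libraries averaged over the 3 regions, in counts scaled to library size (CPM), and had to reach 10 CPM, which 9431 genes did. The second, D, was LPS minus control in log2 CPM (0.5 added to each count), averaged over 4 social settings within a region, and had to reach 0.4, a 1.32-fold difference, in every region, which 511 genes did. The 75 members met both conditions, and all 75 passed the filter on low counts in every region. Everything that follows on the size of the response to LPS therefore describes how the members were picked and is no test of it.

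Each male had received an LPS injection (L) or a control injection (coded S in the sample labels and C in the design text, with no substance given). It was then kept in 1 of 4 settings. It was alone (ISO), stayed with a female it knew throughout (KFC), was brought back to a female it knew (KF) or was put with an unfamiliar female (NF). RNA came from the hypothalamus (HY), from nucleus taenea (TN) and from a region labelled NST, read as the bed nucleus of the stria terminalis. The 134 libraries carried the numbers of 46 males, 42 of them with all 3 regions, and the 24 groups of region, setting and injection held 4 to 6 males each. Neither the dose, nor the time after injection, nor the age of the males is given in the sources used here.

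LPS is a component of the outer membrane of Gram-negative bacteria. In mammals and birds it is sensed by Toll-like receptor 4 on immune and vessel cells. It can set off cytokine release, an acute-phase response, fever and sickness behaviour, with lowered social and feeding drive. Signals from the blood reach the brain through vessel walls, circumventricular organs and nerves. The hypothalamus controls body temperature and hormones, and the bed nucleus and nucleus taenea belong to a network for social behaviour in birds. No names are paired with the identifiers in these files, so 2 members chosen by rule are given by identifier, a few others are singled out by their pattern, and no roles are assigned. Regions could not be checked against marker genes for the same reason. In tissue samples a higher share of a cell type and more RNA per cell cannot be told apart.

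Library totals were 7339294 to 13159755 counts in HY, 7902418 to 11879211 in NST and 9049816 to 14096470 in TN. A control HY library of male 44 in KF stood apart, with a correlation of 0.896 to the median profile of its region across 13548 genes, when the next lowest HY library had 0.956. One NST library (male 4, NF, control) was closer to the TN median (r = 0.965) than to the NST median (r = 0.959). A member, ENSTGUG00000007199, chosen after its values were seen, was below 3 CPM in some males and above it in others, with no value between 2.06 and 5.68 CPM. It lay below in all 3 regions of 20 males and above in all 3 regions of 19 males. In male 32 it had 2.0 CPM in HY, 48.1 CPM in NST and 42.4 CPM in TN. In male 33 it had 64.4 CPM in HY, 0.648 CPM in NST and 0.545 CPM in TN. In male 19 it had 0.994 CPM in HY, 37.1 CPM in NST and 0.397 CPM in TN. So in these 3 males 1 region went against the other two. Whether the 3 libraries that share such a number come from 1 male is therefore uncertain and was not tested, and results that join the regions of a male are given with and without them. Males 32 and 33 were both LPS males in KF and male 19 was an LPS male in NF. The member was below in all regions of 7 and above in all regions of 10 of 20 LPS males, and below in 13 and above in 9 of 22 control males.

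**Figure D1:**
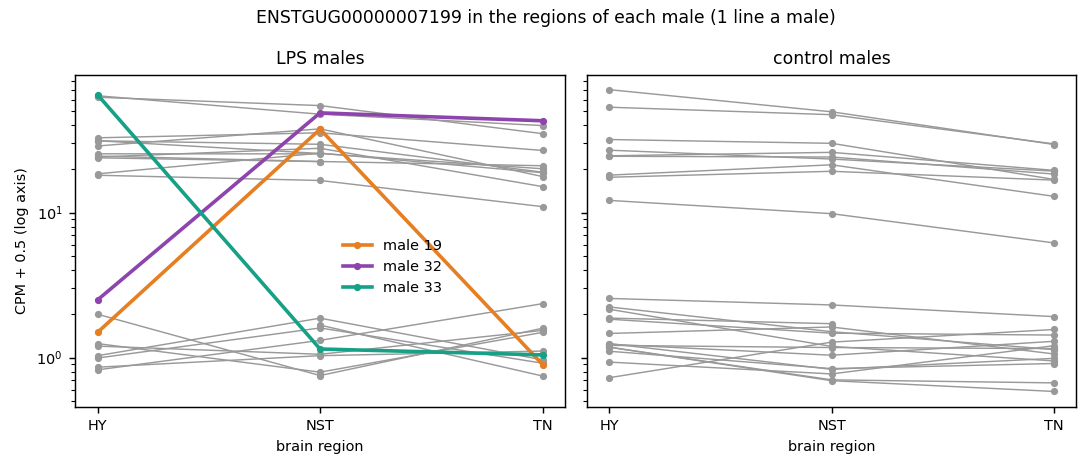
Level of ENSTGUG00000007199 (CPM with 0.5 added, log axis) in the 3 regions, with 1 line for each male, LPS males at left and control males at right. The line of each control male stays high or low, and the coloured lines of LPS males 19, 32 and 33 cross between the 2 levels.

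The members were a small part of each library and together were higher after LPS. Their summed level was 5185 ± 1420 CPM in LPS males and 2596 ± 309 CPM in control males in HY (SD, n = 22 and 23). It was 5184 ± 1480 and 2532 ± 312 CPM in LPS and control males in NST (SD, n = 23 each), and 4029 ± 1209 and 2201 ± 318 CPM in TN (SD, n = 21 and 22). In HY this was 0.519% of all counts after LPS and 0.260% in controls. D averaged over the regions had a median of 0.71 and ran from 0.43 to 4.48. It was at least 2 for 6 members, 1 to 2 for 14 and under 1 for 55, of which 24 were under 0.6. The control level B had a median of 21.9 CPM and ran from 10.02 to 232 CPM, with 34 members under 20 CPM, 31 between 20 and 50 CPM and 10 above that, 6 of them above 100 CPM. The 6 members with D of at least 2 had control levels of 10.2 to 40.4 CPM.

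Many members lay close to the limits that defined them. The smallest D was under 0.5 for 25 members, and B was under 15 CPM for 30. The 3 lowest D values inside the limit were 0.4005, 0.402 and 0.403, and the 3 highest just outside were 0.399, 0.394 and 0.392. The 3 lowest B values inside were 10.02, 10.17 and 10.24 CPM, and the 3 nearest outside were 9.97, 9.96 and 9.94 CPM.

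ENSTGUG00000006574 had the highest D of all members and a low control level (B of 10.6 CPM). In HY its level had a lowest, median and highest value of 46.5, 207 and 1035 CPM in LPS males, against 1.44, 10.1 and 35.9 CPM in control males. In NST these values were 69.2, 233 and 985 CPM in LPS males and 0.654, 7.73 and 49.0 CPM in control males. In TN they were 16.6, 90.8 and 553 CPM in LPS males and 1.04, 5.18 and 44.8 CPM in control males. LPS and control males did not overlap in HY and NST. In TN LPS males 19 (16.6 CPM) and 48 (40.6 CPM) lay below the highest control male, male 37 (44.8 CPM). Fitted log2 changes averaged over settings were 4.16 (SE 0.38) in HY, 4.71 (SE 0.38) in NST and 3.66 (SE 0.37) in TN.

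ENSTGUG00000006533 had the highest control level of the members and a modest response. It averaged 487 ± 109 CPM in LPS males and 289 ± 65.5 CPM in control males in HY (SD, n = 22 and 23). In NST it averaged 338 ± 105 CPM in LPS males and 212 ± 57.5 CPM in control males (SD, n = 23 each), and in TN 336 ± 109 and 195 ± 48.8 CPM (SD, n = 21 and 22). In every region the lowest LPS males lay within the range of the controls. In HY, for example, LPS males ran from 297 to 731 CPM and control males from 219 to 502 CPM. Fitted log2 changes were 0.76 (SE 0.10) in HY, 0.68 (SE 0.11) in NST and 0.70 (SE 0.11) in TN.

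**Figure D2:**
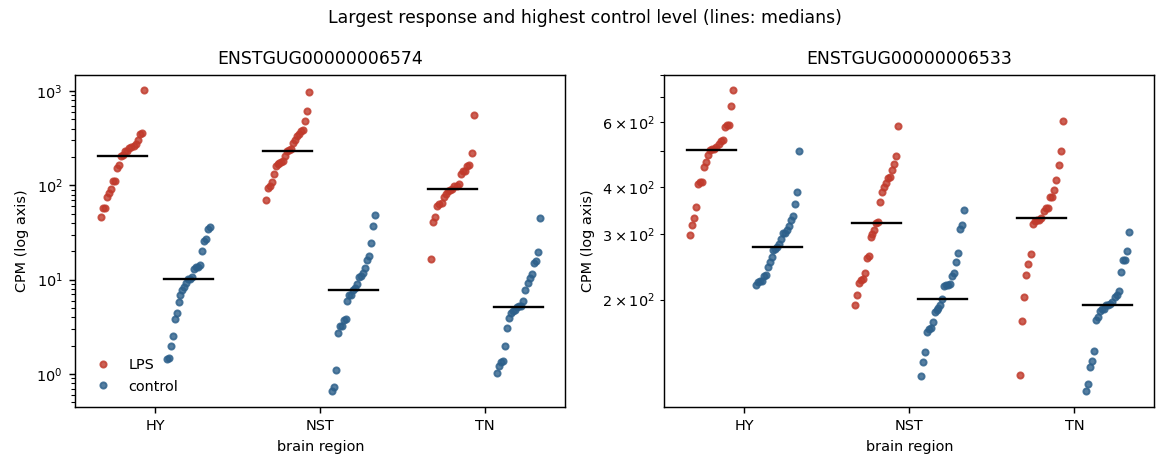
Level (CPM, log axis) of ENSTGUG00000006574 (left) and ENSTGUG00000006533 (right) in each library, sorted within LPS and control males of each region, with lines at the medians. The medians of ENSTGUG00000006574 are 207, 233 and 90.8 CPM after LPS and 10.1, 7.73 and 5.18 CPM in controls of HY, NST and TN, and the 2 sets of ENSTGUG00000006533 overlap in each region.

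In all 3 regions 1 member separated LPS from control males. It was the one ranked 5 by D. Its lowest, median and highest values were 108, 203 and 438 CPM in LPS males and 22.4, 37.6 and 66.2 CPM in control males of HY. They were 117, 192 and 436 CPM in LPS males and 34.9, 43.0 and 49.6 CPM in control males of NST, and 72.1, 164 and 478 CPM in LPS males and 30.8, 39.1 and 49.9 CPM in control males of TN. Its lowest LPS value was above its highest control value in each region. In HY 7 members were separated in this way (0.132% of all tested genes), in NST 10 (0.181%) and in TN 2 (0.0548%), and 12 were in at least 1 region. For the 1 member in all 3 regions and the 12 in at least 1, the share over all genes was not counted, so nothing is read from them. The member ranked 19, with control means of 100, 113 and 129 CPM in HY, NST and TN, had the highest control level of the members with mean D above 1. Its LPS males ran from 135 to 425 CPM in HY and 148 to 383 CPM in NST, above control males at 74.2 to 125 CPM and 96.7 to 146 CPM. In TN the 2 sets overlapped, with 114 to 338 CPM in LPS males and 107 to 150 CPM in control males.

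D was of similar size in the 3 regions for most members. The median over the members was 0.69 for HY, 0.70 for NST and 0.68 for TN, and over all tested genes it was -0.00075, -0.01 and 0.03. The highest and lowest region of a member differed by a median of 0.27 and by less than 0.5 for 64 of 75. TN was the lowest region for 37 members, NST for 21 and HY for 17. Among the 12 members with the highest D, 10 had their highest value in NST and 10 their lowest in TN. For ENSTGUG00000006574 the values in HY, NST and TN were 4.29, 5.07 and 4.09, and for the member ranked 2 they were 3.37, 4.07 and 2.88. A few members went another way. The member ranked 13 had D of 0.90 in NST, below 1.68 in HY and 1.88 in TN, and its control level was highest in NST, with 39.6 CPM against 23.4 CPM in HY and 12.98 CPM in TN. The member ranked 20 had its highest D in HY, at 1.55, with 0.94 in NST and 0.58 in TN, and control levels of 12.3, 29.1 and 33.4 CPM in that order. The member ranked 21 had its highest D in NST, at 1.52, with 0.54 in HY and 0.68 in TN. D in each region was part of the choice, so these differences are not tested.

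With the same contrast fitted by edgeR's quasi-likelihood test over all genes, 58 members passed in HY (3.28% of all tested genes were higher after LPS and passed), 62 in NST (3.68%) and 55 in TN (2.62%), at a Benjamini-Hochberg adjusted p of 0.05. Of the members 51 passed in 3 regions, 9 in 2, 4 in 1 and 11 in none, and of the 14140 genes tested in every region 1.95%, 0.962%, 1.9% and 95.2% did so with a higher level after LPS. The rule used this contrast. The last 11 did not have the smallest D, with a median of 0.67 against 0.72 for the 51. They had a larger spread among males of a group, with a median SD of 1.44 on the log2 scale against 0.38.

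Within single settings the response was above 0 nearly throughout, and NF gave the lowest values most often. D was above 0 in all 12 combinations of region and setting for 63 members, and 26 of 900 values were below 0, from 12 members. Median D over the members in ISO, KFC, KF and NF was 0.83, 0.85, 0.70 and 0.61 in HY. It was 0.78, 0.81, 0.75 and 0.61 in NST and 0.74, 0.89, 0.67 and 0.52 in TN. NF was the lowest of the 4 settings for 31 members in HY, 43 in NST and 48 in TN. Members that passed in ISO, KFC, KF and NF alone numbered 34, 33, 26 and 21 in HY (0.985%, 1.03%, 0.832% and 0.576% of all tested genes were higher after LPS and passed), and NF gave 13 without LPS male 57 or 59. They numbered 30, 27, 36 and 20 in NST (1.13%, 0.876%, 1.12% and 0.577%), with 19 in ISO without LPS male 56. They numbered 23, 24, 19 and 2 in TN (0.891%, 0.664%, 0.555% and 0.0891%). In TN DESeq2 gave 37 in ISO (1.38% of all tested genes were higher after LPS and passed) and 4 in NF (0.171%), and NF gave 1 to 4 when 1 library was left out. The LPS group of TN in NF was the smallest of the study, with 4 males. The control group of TN in NF had 5, as did each KFC group.

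**Figure D3:**
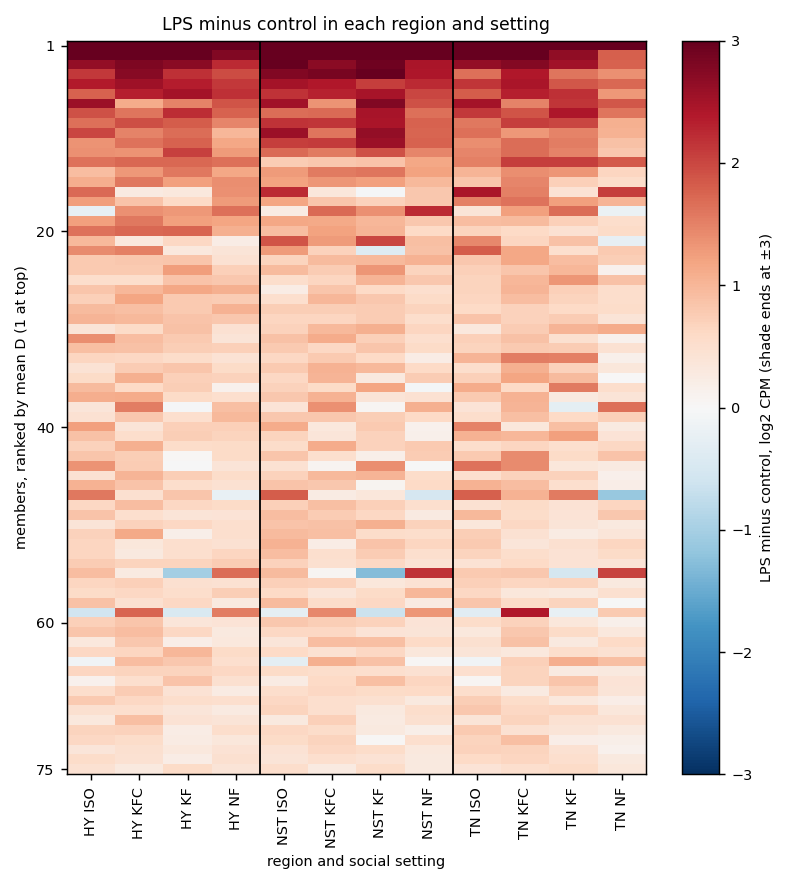
LPS minus control (log2 CPM, shades ending at 3 above or below 0) of the 75 members, ranked by mean D from the top, in ISO, KFC, KF and NF of HY, NST and TN. Most fields are red; the 26 values below 0 are in 12 members, and the TN column of NF is the palest, with a median of 0.52.

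Whether the response differed between settings was tested. The rule used the mean over settings and not the differences between them, but both come from the same libraries, and some members reached the limit through settings with a high response. In no region did a member pass the edgeR test of LPS by setting, nor did any gene (0% of all tested genes). With DESeq2 0 members passed as well (0% of all tested genes in HY and TN and 0.0417% in NST). At an unadjusted p under 0.05 there were 2 members in HY (2.67%, against 4.88% of all tested genes), 2 in NST (2.67% against 3.87%) and 5 in TN (6.67% against 4.73%). No member passed in any of the 6 pairs of settings of a region with edgeR (0 to 0.00695% of all tested genes) or DESeq2 (0 to 0.0208%). At an unadjusted p under 0.05 there were 1 to 15 members in a pair (2.75% to 8.56% of all tested genes). The 15 were for NF minus KFC of TN (20%, against 4.38% of all tested genes), each with a lower response in NF. The median difference there was -0.39 (0.01 over all tested genes), and this pair is given because its count was the highest. It held the LPS libraries of TN with the lowest and the highest mean over the members, male 19 in NF and male 67 in KFC. How far the 15 rest on these libraries is not shown here. Within groups of LPS males in TN, pairs of members had a median correlation of 0.239, against 0.0355 for genes with B of at least 10 CPM. The 15 are therefore not independent of each other. The 8.56% was for KF minus KFC of HY, with 4 members (5.33%). For NF against the mean of the other 3 settings, 0 members passed with edgeR (0% of all tested genes in HY and TN and 0.00695% in NST) or DESeq2. In TN the response was lower in NF than in the mean of the other settings for 60 of 75 members, with a median difference of -0.30 (0.01 over all tested genes). There 10 members had an unadjusted p under 0.05 (13.3% against 5.29% of all tested genes), each with a lower response in NF. This count rested on 1 library: without TN of male 19 it was 2, against 3.9% of all tested genes, with a median difference of -0.25. In HY and NST the median differences for NF were -0.13 and -0.17, with 0 and 3 members at an unadjusted p under 0.05 (3.49% and 4.59% of all tested genes). Unlike those in TN, the 3 in NST each had a higher response in NF.

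ENSTGUG00000006533 and ENSTGUG00000006574 were both among these 10. In TN of NF the level of ENSTGUG00000006533 was 125, 203, 266 and 326 CPM in the 4 LPS males and 146, 194, 203, 255 and 304 CPM in the 5 control males. All control values lay between the lowest and the highest LPS value, and the log2 change there was 0.01 (SE 0.24), when it was 0.72 (SE 0.21) in ISO, 0.94 (SE 0.21) in KF and 1.14 (SE 0.23) in KFC of TN. The response in NF minus that in the other settings was -0.92 (SE 0.28, edgeR adjusted p = 0.851), and it ran from -1.12 to -0.73 without 1 NF library at a time. In HY the same difference was -0.06 (SE 0.23) and in NST 0.06 (SE 0.26). For ENSTGUG00000006574 in TN of NF, the LPS males had 16.6, 46.2, 60.1 and 99.4 CPM and the control males 1.04, 1.36, 1.96, 4.47 and 44.8 CPM. One control male, male 37, lay among the LPS males. NF minus the other settings was -1.75 for this gene (SE 0.86, edgeR adjusted p = 0.851), and this rested on that male: without it the difference was 0.50 (SE 0.80, edgeR adjusted p = 0.9998). On the scale of D the response of this gene in TN was 4.45 in ISO, 4.32 in KFC, 3.90 in KF and 3.68 in NF. Neither difference passed the adjustment over all genes tested.

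The level of the members was also compared between settings, in control males alone and over both injections, where a difference in response enters as well. Among control males 0 members passed in any region with edgeR (0% of all tested genes in each). At an unadjusted p under 0.05 there were 2 in HY (5.74% of all tested genes), 7 in NST (4.51%) and 6 in TN (4.97%), and DESeq2 gave 0, 1 and 1 after adjustment (0.00693%, 0.139% and 0.0411% of all tested genes). Over both injections 0 members passed in HY (0% of all tested genes), NST (0.0417%) and TN (0%). At an unadjusted p under 0.05 there were 5 in HY (4.2% of all tested genes), 12 in NST (12%) and 11 in TN (8.96%), and DESeq2 gave 0, 1 and 2 after adjustment (0%, 0.959% and 0.329%). In the 18 pairs of settings over both injections 0 members passed with edgeR (0 to 0.473% of all tested genes) and 2 with DESeq2 (0 to 0.925%), 1 for KF minus ISO of NST (0.0556%) and 1 for NF minus ISO of TN (0.438%). In these 18 pairs 1 to 16 members had an unadjusted p under 0.05 (2.41% to 14.3% of all tested genes). For KFC minus ISO of NST, for example, there were 11 (14.7%, against 14.3% of all tested genes). The pair with 16, NF minus KFC of TN, is described because its count was the highest, after the values were seen. In TN over both injections the median of NF minus KFC was -0.12, with 62 of 75 members below 0. In log2 CPM the same difference had a median of -0.32 in LPS males, with 65 members below 0, and of 0.02 in control males, with 36 below 0. For all tested genes the median was -0.026 in LPS males, with 54.9% below 0, and -0.028 in control males, with 56.5% below 0. Over both injections 16 members had an unadjusted p under 0.05 (21.3%, against 4.23% of all tested genes, of which 0.00685% passed), and without male 19 of TN there were 10 (3.31%). KFC males carry numbers of their own, 62 to 71, and the sources used here do not say whether they were handled apart from the rest.

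The mean over the members was higher in nearly every LPS library than in any control library of its region. This value is the mean of log2 CPM over the 75 genes relative to the mean of control libraries in that region. It was 0.96 ± 0.27 in LPS males of HY (SD, n = 22), with values of 0.43 to 1.67, and ran from -0.26 to 0.33 in control males (SD 0.16, n = 23). In NST it was 0.996 ± 0.27 in LPS males (n = 23), with 0.54 to 1.62, against -0.17 to 0.35 in control males (SD 0.14, n = 23). In TN it was 0.93 ± 0.30 in LPS males (n = 21), with 0.14 to 1.60, against -0.36 to 0.40 in control males (SD 0.19, n = 22). LPS and control males overlapped only in TN, through male 19 in NF at 0.14. The members were picked for this separation. The spread between males comes from the same libraries and is not independent of the choice either.

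**Figure D4:**
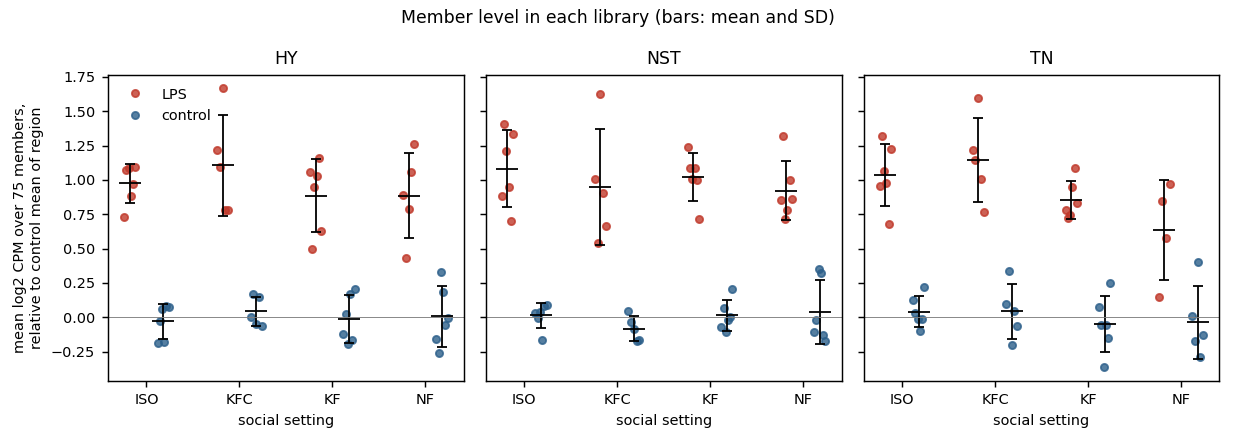
Mean log2 CPM over the 75 members in each library, relative to the mean of control libraries of the region, by setting (horizontal axis), with LPS males left of control males and bars for mean and SD. LPS libraries run from 0.14 to 1.67 and control libraries from -0.36 to 0.40, and the lowest LPS library is in NF of TN.

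LPS males differed from each other in how far the members were raised, and the regions of a male often lay on the same side of the group mean. Male 67, an LPS male in KFC, had the highest value in each region, with 1.67 in HY, 1.62 in NST and 1.60 in TN. Of the 20 LPS males with 3 regions, 6 lay above and 7 below the mean of their group in all 3. Between the regions of a male, these deviations from the group mean differed by a median of 0.26 and at most by 0.89, in male 19, where they were -0.45 in HY, 0.40 in NST and -0.49 in TN. With males 19, 32 and 33 left out of the count, 6 and 7 of 17 were above and below in all 3. The largest difference was then 0.44, in male 59 of NF, the setting of male 19. The group means still included males 19, 32 and 33, so these values are not free of them. Of 22 control males 4 lay above and 8 below in all 3 regions. Member by member, a median of 23 of 42 males deviated in the same direction in all 3 regions, against 17 of 42 over all 9431 genes with B of at least 10 CPM, or 22 against 16 of 39 without males 19, 32 and 33. The rule asked for D of 0.4 in regions that come from the same males, so these counts are not independent of it and are given with no test.

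The spread between males of a group was wide for some members. It is a description of the chosen genes and not tested, because it comes from the libraries whose means set B and D. The median SD within groups was 0.46 on the log2 scale over the members and 0.25 over the 9431 genes with B of at least 10 CPM. It was above 1 for 12 members (16%) and for 124 of the abundant genes (1.31%). Of these 12 members 10 passed the LPS test in no region, and 10 members had at least 1 library below 1 CPM. Of the members with such a library, ENSTGUG00000006574 was the only one that passed in any region. It had 2 libraries below 1 CPM and passed in all 3 regions. The others passed in none, among them ENSTGUG00000007199 with 50 such libraries. The share over all genes was not counted. A few libraries near 0 can raise D without a higher level in most males, and for which members they did so was not tested. The member ranked 38 had 0 to 0.19 CPM in every region of control males 20 and 62. Its medians in LPS and control males were 13.5 and 12.1 CPM in HY, 12.5 and 11.3 CPM in NST, and 9.94 and 10.6 CPM in TN. It passed in no region. The member ranked 10 is an example of a wide range: it averaged 115, 106 and 93.7 CPM in control males of HY, NST and TN, but its control medians were 42.2, 39.7 and 30.6 CPM. Its control males reached 645, 586 and 774 CPM, and its LPS males ran from 39.9 to 1396 CPM in HY, 65.9 to 1799 CPM in NST and 26.1 to 1880 CPM in TN.

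The level of the members in control males was also compared between regions. The rule used control levels averaged over the regions in B, and those of each region in D, so this comparison is not fully independent of it: 16 members had a control mean below 10 CPM in TN, 3 in NST and 1 in HY. In the edgeR fit with the male as a block, 48 of 75 members differed between TN and HY (64%, against 61.3% of all tested genes). Of these 14 were higher in TN (30.4% of all tested genes were higher and passed) and 34 lower (30.9%). Between NST and HY 41 members differed (54.7% against 44.2%), 19 higher in NST (22%) and 22 lower (22.2%). Between TN and NST 35 members differed (46.7% against 38.9%), 12 higher in TN (19.6%) and 23 lower (19.2%). The share of members that differed was close to that of all genes for TN and HY. Members lower in TN outnumbered those higher in TN in both comparisons, which over all tested genes were about equally frequent. Without the block, 23 of 75 members differed between NST and HY (34.1% of all tested genes passed), 12 higher and 11 lower in NST. Between TN and NST 19 differed (28.5%), 7 higher and 12 lower in TN, and between TN and HY 36 (51.9%), 13 higher and 23 lower. In each of these comparisons the share of members was then below that of all tested genes. The lowest mean level was in TN for 50 members, and the highest was in HY for 43, NST for 21 and TN for 11. The median log2 difference over all members was -0.13 for TN minus HY, where it was -0.01 over all tested genes.

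Most of these differences were small. The highest region was less than 1.2 times the lowest for 26 members and more than 2 times for 11. In 23 members that passed for TN minus HY the level fell in the order HY, NST, TN (23.8% of all tested genes), and in 12 it increased in that order (23.2%). ENSTGUG00000006533 was lower in both TN and NST than in HY (log2 difference -0.44, SE 0.07, adjusted p = 1.75e-06 for TN, and -0.39, SE 0.07, adjusted p = 2.08e-05 for NST, edgeR). ENSTGUG00000006574 was lower in TN than in HY by edgeR (-0.46, SE 0.12, adjusted p = 0.00104). 

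The widest difference was that of ENSTGUG00000011202, the member ranked 44, which was far higher in NST. Its lowest, median and highest levels in control males were 17.8, 87.9 and 300.2 CPM in NST, 1.38, 5.64 and 34.3 CPM in TN and 6.36, 9.97 and 43.2 CPM in HY. NST minus HY was 3.25 on the log2 scale (edgeR adjusted p = 4.01e-12) and TN minus NST was -3.77 (adjusted p = 2.42e-13), whereas TN minus HY did not pass (-0.52, adjusted p = 0.148). D of this member was 0.48 in NST, 0.92 in TN and 0.62 in HY, and it passed for LPS in no region. ENSTGUG00000015769, ranked 47, fell most clearly in the order of the regions, with median control levels of 5.50 CPM in TN, 15.1 CPM in NST and 31.8 CPM in HY. TN minus HY was -2.14 (edgeR adjusted p = 3.79e-15). The ranges overlapped, from 0.360 to 19.9 CPM in TN and from 1.97 to 134 CPM in HY. Both genes were chosen after their values were seen, as the largest ratios between regions.

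**Figure D5:**
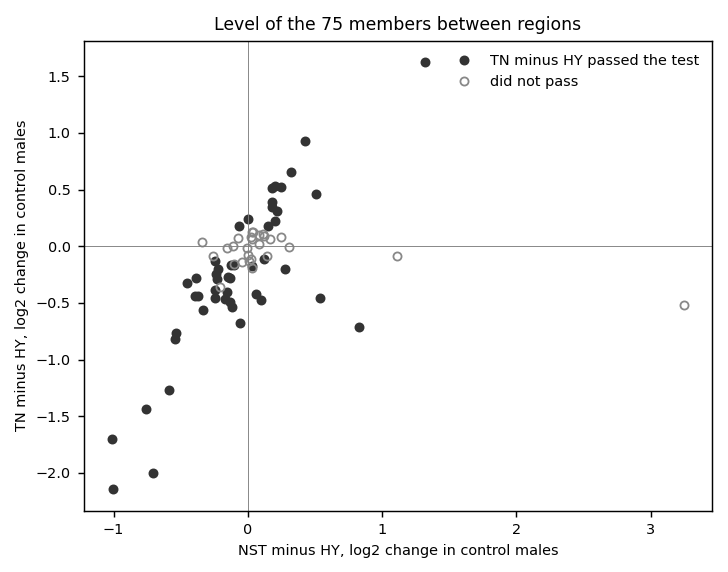
Log2 difference of NST minus HY (horizontal) and of TN minus HY (vertical) in control males for the 75 members, filled where TN minus HY passed (48 members). Of the filled points 34 lie below 0 vertically and 14 above, and the point at 3.25 horizontally is ENSTGUG00000011202.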

How the data were processed

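The values deposited by the authors are raw counts: whole numbers for 18618 identifiers, with totals that differ between libraries. Alignment with HISAT2 and counting with HTSeq 0.6.1 are named in the submitters' processing notes. The build, annotation and strand setting behind the counts were not given in the sources used here, and overlapping genes or near-identical copies may share reads. Libraries were made from polyadenylated RNA, per the labels' protocols. None of the 18618 identifiers matched the gene table at hand (0 of 18618), so gene lists and marker genes could not be used, and no sequences are shown.

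The members and lists were chosen with earlier results of these data known. Members were found from counts divided by the column sum, with 0.5 added before log2. Named by rule were the member with the highest mean D and the one with the highest B. The test was edgeR 4.0.16 under R 4.3.3 (filterByExpr with a minimum count of 10 and a minimum total of 15, TMM scaling, robust quasi-likelihood fit to the 8 groups of a region), 2-sided, with Benjamini-Hochberg adjustment over all genes tested and a threshold of 0.05. An SE is the fitted log2 change divided by the square root of F. Region comparisons used control libraries with the male as a block, since the design text says that the regions came from the same males. The labels give male numbers, taken to mark separate males. The 3 males whose regions went against each other were all LPS males and did not enter that fit. The control libraries that stood out, HY of male 44 and NST of male 4, did enter it. Between NST and HY 41 members differed (44.2% of all tested genes). Without male 44 there were 44 (48.8%), and without male 4 there were 39 (43.4%). The models were first tested on simulated data in which 200 genes were changed.

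Alternatives were other limits for the members, RLE scaling, no filter on low counts, DESeq2 1.42.0, no block, and fits without 1 library at a time. Leaving out males 19, 32 and 33, and the fits of the named genes without each NF library of TN, were added after the data were seen. Every library had at least 7339294 counts, and the lowest median count of a member was 20 (HY), 51 (NST) and 17 (TN). The biological coefficient of variation, the fitted spread beyond counting error, had a median over the members of 0.303 (HY), 0.278 (NST) and 0.295 (TN). The figures come from matplotlib 3.10.9 under Python 3.11.15.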

Additional observations from a re-analysis of the deposited data

Results flagged for a closer look

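Over the 24 groups of region, setting and injection, the 2 genes named by rule and the mean over the members gave 72 sets of values (on the log2 scale), and 3 held a male far from the others by Dixon's test at 95%, which chance alone would give in about 1 in 20 groups. ENSTGUG00000006574 was low in HY of control male 42 in KF, with 1.44 CPM, when the other 5 males of the group had 9.32 to 20.1 CPM. ENSTGUG00000006533 was low in HY of LPS male 19 in NF, with 297 CPM, when the other 4 had 504 to 580 CPM. The same gene was high in HY of control male 44 in KF, with 502 CPM, when the other 5 had 233 to 303 CPM. The HY library of male 44 also stood apart in its profile across all genes, and without it 59 members passed the LPS test in HY in place of 58.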

How the results depend on the processing

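The number of members followed the limits of the rule: 121 genes with D of at least 0.3, 149 with B of at least 5 CPM and 41 with B of at least 20 CPM, in place of 75. Under DESeq2, 1 member differed between settings in controls of NST (0.139% of all tested genes), 1 over both injections (0.959%) and 1 in a pair of settings (0.0556%), and 1, 2 and 1 in TN (0.0411%, 0.329% and 0.438%), where edgeR gave 0. DESeq2 also gave 37 members for LPS in ISO and 4 in NF of TN, where edgeR gave 23 and 2. Of all tested genes 1.38% and 0.171% were higher after LPS and passed by DESeq2, and 0.891% and 0.0891% by edgeR. Without the replicate block, members higher and lower numbered 12 and 11 for NST minus HY, 7 and 12 for TN minus NST, and 13 and 23 for TN minus HY, where the fit with the male as a block gave 19 and 22, 12 and 23, and 14 and 34. In that order 34.1%, 28.5% and 51.9% of all tested genes passed without the block, and 44.2%, 38.9% and 61.3% with it. The cause was not tested. Leaving out each library in turn gave 71 to 79 members. It gave 13 to 23 members for LPS in NF of HY (13 without LPS male 57 or 59), 19 to 37 in ISO of NST (19 without LPS male 56) and 1 to 4 in NF of TN (4 without control male 37, 1 without LPS male 59). It gave 0 to 1 for setting in controls of TN (1 without control male 70) and 0 to 1 for pairs of settings over both injections in TN (1 without control male 31). Of 141 values under other settings 126 stayed within the limits used for calling a result unchanged, and 1890 of 1898 when a library was left out. For ENSTGUG00000006574 in TN, the response in NF minus the other settings ran from -2.22 to 0.50 without 1 NF library at a time (0.50 without control male 37), in place of -1.75, an alternative chosen after seeing the data. For ENSTGUG00000006533 the same difference ran from -1.12 to -0.73. Groups held 4 to 6 males, which limits how small a difference between settings can pass.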
